A study of Homo sapiens with 12 samples.

Results

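The oncofetal let-7 targets described here are 8 protein-coding genes, HMGA1, HMGA2, IGF2BP1, IGF2BP2, IGF2BP3, LIN28B, ARID3B and TRIM71. They were chosen by name, as classic targets of the let-7 miRNA family, among the 58302 genes of the deposited expression table, and all 8 were found in it. The table holds RNA-seq values for 12 libraries, 3 each of the papillary thyroid carcinoma cell line TPC1, genotype wt, and of its Dicer1 (+/-) clones D11, WB1 and TD5. The clones came from TPC1 cells transiently transfected with a CRISPR/Cas9 plasmid whose guide lies in exon 11 of Dicer1, each keeps one wild-type allele, and no cells received a further treatment. Each clone is a single-cell derivative, so a difference from TPC1 may belong to the genotype or to the clone, and the design cannot tell these apart. Nothing in the labels says that the 3 libraries of a line came from separate cultures, so the p-values measure the spread between these libraries, which may be technical.

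let-7 miRNAs are cut by DICER1 from hairpin precursors and then guide Argonaute proteins to matching sites, mostly in the 3′ UTRs of mRNAs, whose stability and translation fall. They accumulate as cells differentiate. Many of their targets are genes of the embryo and fetus that are silent in adult tissue and come back in tumors, and LIN28 proteins close a loop by binding let-7 precursors and blocking their maturation. The comparison of the clones with TPC1 asks how the level of these target mRNAs stood in cells with one disrupted Dicer1 allele.

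All 9 mature let-7 forms of the RefSeq miRNA table share the same seed, bases 2 to 8 from the 5′ end. Of these forms, 4 are shown with the seed in capitals, because the sites in the targets are read from it.
let-7a-5p: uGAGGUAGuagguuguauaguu
let-7e-5p: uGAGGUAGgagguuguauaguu
let-7i-5p: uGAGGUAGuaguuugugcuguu
miR-98-5p: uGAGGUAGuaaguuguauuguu

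The 3′ UTRs of the members were searched on the sense strand for CTACCTCA (the 8-mer), CTACCTC (the 7-mer to seed base 8) and TACCTCA (the 7-mer that ends in A), each stretch being counted once as the longest form it matches. Of 19082 human 3′ UTRs, 3.76% held the 8-mer, 9.77% held CTACCTC and 10.72% held TACCTCA, counts that include the 8-mers in both 7-mers. All 8 members held at least 1 match, which follows from their choice as let-7 targets and is no finding. One site per member is printed, with the match in capitals, from GRCh38 in the direction of the gene.
HMGA2 (chr12:65963299-65963320, + strand, 8-mer): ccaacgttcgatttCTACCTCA
HMGA1 (chr6:34245830-34245851, + strand, 7-mer): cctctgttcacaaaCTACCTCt
IGF2BP1 (chr17:49051062-49051083, + strand, 8-mer): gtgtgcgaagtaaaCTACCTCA
IGF2BP2 (chr3:185644220-185644241, - strand, 8-mer): acacacagaagaagCTACCTCA
IGF2BP3 (chr7:23311795-23311816, - strand, 8-mer): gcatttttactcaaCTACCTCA
LIN28B (chr6:105078813-105078834, + strand, 8-mer): cccggttgcaaagtCTACCTCA
ARID3B (chr15:74598102-74598123, + strand, 7-mer): atttcaataaacctCTACCTCt
TRIM71 (chr3:32891969-32891990, + strand, 8-mer): acattgcttaagtcCTACCTCA

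The number of matches differed widely among the members. TRIM71 held 8 in a 3′ UTR of 6013 bases, of which 4 were 8-mers. HMGA2 held 7 in 2999 bases, the highest density at 2.33 per kilobase, of which 1 was an 8-mer. ARID3B, LIN28B and IGF2BP1 held 5 each, IGF2BP2 held 3, and HMGA1 and IGF2BP3 held 1 each. These counts refer to the MANE Select transcript of each gene. The longest annotated 3′ UTR of HMGA2, 7421 bases of another isoform, held 0 matches, and gene-level values cannot tell the isoforms apart.

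**Figure D1:**
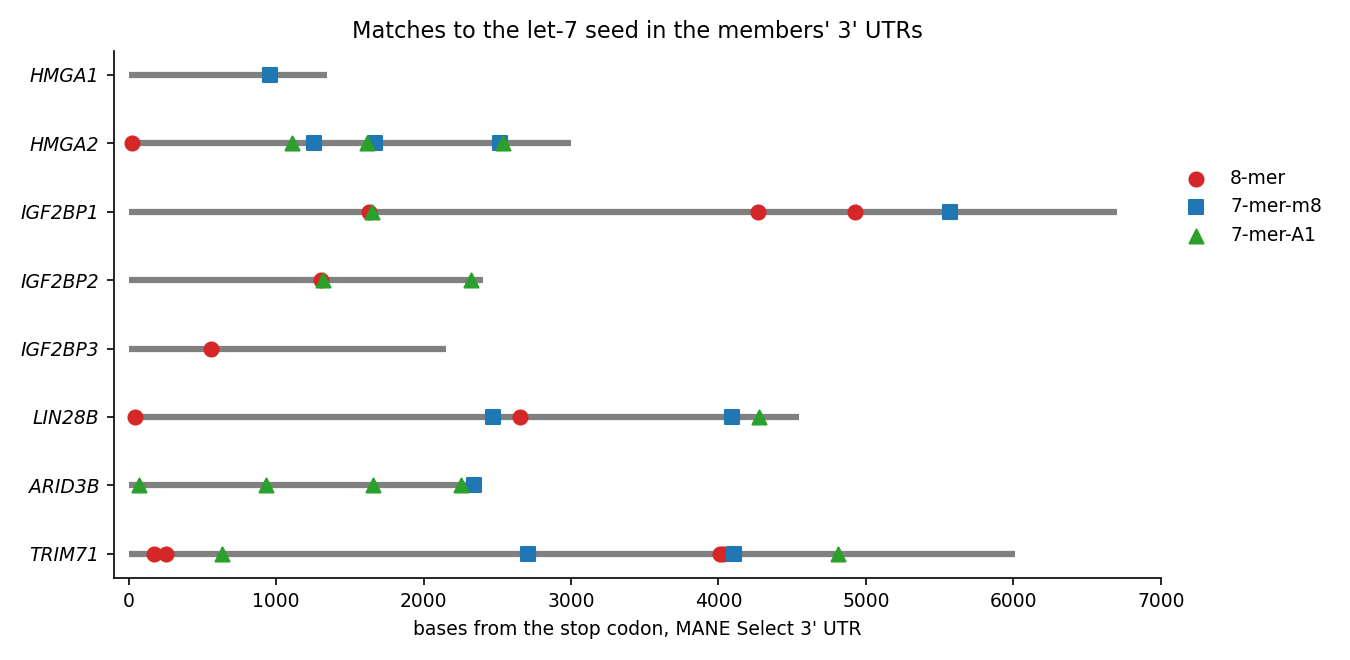
Positions of let-7 seed matches along the 3′ UTR of each member, in bases from the stop codon of the MANE Select transcript (grey bar, drawn to its length). Red circles are 8-mers, blue squares and green triangles both kinds of 7-mer. TRIM71 has 8 matches and HMGA2 has 7, against 1 each in HMGA1 and IGF2BP3.

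Each library had been scaled by the authors to 20000000 reads, so values are given as scaled reads. The gaps between the whole numbers, or in the TPC1 library without gaps the likelihood of its values, gave an estimated 12700000 to 21020000 reads per library, and 3 reads correspond to 2.85 to 4.72 scaled reads, a floor that covers counting error only. DICER1 itself, the edited gene, stood at 1360, 1129 and 1101 scaled reads in TPC1. Values were 977, 1051 and 1093 for D11, 881, 939 and 815 for WB1 and 643, 627 and 809 for TD5. It was lowest in TD5 and only there fell by at least 1.5-fold (log2 fold change −0.77, SE 0.10, adjusted p = 9.02e-05). The thyroid follicular markers NKX2-1, TSHR and SLC5A5 were at 0 in all 12 libraries, while PAX8, a thyroid transcription factor, was high (7248 to 9879). PAX8 had 7248 to 8549 scaled reads in TPC1, 7547 to 8088 in D11, 8397 to 9879 in WB1 and 8950 to 9753 in TD5. Its mean was thus not lower in any clone, and was 119.6% and 120.0% of TPC1 in WB1 and TD5. FOXE1, another thyroid transcription factor, fell in all 3 clones, from 280 to 316 scaled reads in TPC1 to 93 to 171 over the 9 clone libraries (log2 fold changes −0.95, −1.06 and −1.20 for D11, WB1 and TD5, all called). The summed epithelial markers ran from 21317 to 24330 in TPC1 and from 16887 to 19326 over the clone libraries, and KRT8 and KRT18, keratins that make up nearly all of the sum, passed the p threshold as lower in every clone, under 1.5-fold. Summed fibroblast markers were 259 to 367 in TPC1, 168 to 204 in D11, 234 to 355 in WB1 and 187 to 221 in TD5. These sums hide markers that moved in opposite directions in WB1. LUM had 63 to 78 scaled reads in TPC1, 0 in D11, 138 to 212 in WB1 and 0 to 2 in TD5. PDGFRB had 112 to 192 in TPC1, 95 to 135 in D11, 37 to 56 in WB1 and 139 to 158 in TD5. The part of these marker differences in the results on the members was not tested. TD5 replicate 3 stood apart from its line. In that library 190 genes (1.19% of those tested) lay at least 1.5-fold above both other TD5 libraries, against 4 to 13 genes in any other library relative to its own line. HMGA2 is one of the 190. For HMGA2 and IGF2BP3, TD5 results are therefore also given without that library, while most other TD5 values are given only with it.

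Across the 8 members, HMGA2 was called higher in D11 and in WB1, and no other member was called in any clone against TPC1. A gene was called when the Benjamini-Hochberg adjusted p of limma over all 16027 tested genes was under 0.05 and the change at least 1.5-fold. Of the members, 6 had at least 1 per 1000000 in 3 libraries and were tested, while LIN28B and IGF2BP1 were not. In D11 1 of these 6 was called higher, where 2.89% of all tested genes were, in WB1 1 of 6 against 3.39%, and in TD5 0 of 6 against 1.12%. In TD5 limma and voom on estimated reads both called 0. At an unadjusted p under 0.05 in limma, a looser rule than that of a call, 2 of the 6 passed in TD5 (HMGA1 and HMGA2). HMGA2, IGF2BP3 and TRIM71 (lower) passed it in D11, and HMGA1, HMGA2, IGF2BP2 (lower) and IGF2BP3 in WB1. In TD5 HMGA1 and HMGA2 also passed at an adjusted p under 0.05 in limma, as 11.9% of all tested genes did. The share of all tested genes at an unadjusted p was not computed. In limma none of the 6 was called lower, where 1.95%, 1.59% and 1.48% of all tested genes were. The median log2 fold change of these 6 members was 0.09, 0.29 and 0.06 for D11, WB1 and TD5, beside 0.05, 0.06 and 0.00 over all tested genes. The 3 comparisons share the TPC1 libraries and are not independent.

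HMGA2 (ENSG00000149948, chromosome 12, 65824460 to 65966291 of GRCh38) encodes an AT-hook protein that bends DNA and opens chromatin, active in the embryo. It had 1217, 1383 and 1341 scaled reads in TPC1. The D11 libraries gave 2051, 2033 and 2471, the WB1 libraries 2440, 2409 and 2127, and the TD5 libraries 1711, 1391 and 2662. Every clone library was above every TPC1 library, though the lowest TD5 library exceeded the highest of TPC1 by only a few reads. Among all tested genes, 5.2% had all 9 clone libraries above TPC1 in this way. In bulk RNA, a higher mean from more cells expressing the gene and one from more RNA per cell cannot be told apart.

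In D11 the log2 fold change of HMGA2 was 0.72 (SE 0.15, adjusted p = 0.0027), from a mean of 1314 ± 86.3 (SD, n = 3) in TPC1 to 2185 ± 248 (SD, n = 3). In WB1 it was 0.81 (SE 0.15, adjusted p = 0.00117), with a mean of 2325 ± 172 (SD, n = 3). In both clones the difference was larger than the spread between libraries. In TD5 it was 0.49 (SE 0.15, adjusted p = 0.0465), under 1.5-fold, with a mean of 1921 ± 661 (SD, n = 3). Its adjusted p ranged from 0.00246 to 0.166 over the alternative settings, and the TD5 value depended on single libraries: without replicate 3 it was 0.23 (adjusted p = 0.166), and without replicate 2 it was 0.69 (adjusted p = 0.00246), a call.

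The clones were also compared with one another for HMGA2. WB1 and D11 differed by 0.09 on the log2 scale (95% interval −0.23 to 0.42, adjusted p = 0.818). TD5 stood 0.23 below D11 (log2 difference −0.23, adjusted p = 0.287) and 0.32 below WB1 (log2 difference −0.32, adjusted p = 0.166), neither past the threshold. Without TD5 replicate 3 these differences were −0.49 (adjusted p = 0.00156) and −0.58 (adjusted p = 0.000907), both still under 1.5-fold. DICER1 mRNA was lowest in TD5, the clone with the smallest HMGA2 difference from TPC1, and a link between these values was not tested.

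Base composition moved with the lines. HMGA2 is rich in A and T, with 38.8% GC against a median of 48.1% over tested genes. GC content is that of the longest annotated transcript of each gene. For HMGA2 this transcript has 8094 bases, where the union of its exons has 15070. The slope of a library's values on GC content was 0.03 to 0.11 on the log2 scale per 10 percentage points in TPC1, −0.11 to −0.03 in D11, −0.09 to 0.01 in WB1 and −0.00 to 0.12 in TD5. The 190 genes raised in TD5 replicate 3 had a median of 36.8% GC. After correction of each library for GC content, HMGA2 had a log2 fold change of 0.53 in D11 (adjusted p = 0.00467), which is under 1.5-fold and no call. WB1 then stood at 0.66 (adjusted p = 0.000765) and TD5 at 0.46 (adjusted p = 0.0167).

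Transcripts on the opposite strand of the HMGA2 locus were also higher in D11 and WB1. RPSAP52, a transcribed pseudogene inside the HMGA2 region that shares 0 exon bases with it, was singled out after its values were seen. It had 47, 82 and 44 scaled reads in TPC1. D11 gave 118, 108 and 103, the WB1 libraries 110, 137 and 112, and the TD5 libraries 86, 83 and 101. All 9 clone libraries again exceeded TPC1, by 1 scaled read at the closest. RPSAP52 was called in D11 (0.77, SE 0.15, adjusted p = 0.00173) and WB1 (0.87, SE 0.15, adjusted p = 0.000661), while TD5 stood at 0.53 (SE 0.15, adjusted p = 0.032), a call of 0.74 without TPC1 replicate 2. With a pseudocount of 4 both calls were lost, at 0.47 and 0.54. The lncRNA AC090673.1, which shares 384 exon bases with HMGA2, had 17 to 33 scaled reads in TPC1, 41 to 43 in D11, 37 to 46 in WB1 and 24 to 38 in TD5, with log2 fold changes of 0.53 and 0.53 for D11 and WB1 (adjusted p = 0.0128 and 0.0129), under 1.5-fold. The library kit keeps strand, but the strand setting of the read counting is not given in the sources used here, so reads of the shared bases could be counted for either gene.

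HMGA1 (ENSG00000137309, chromosome 6, 34236873 to 34246231), the close relative of HMGA2 and also an AT-hook protein, was the most abundant member. It had 8641, 10521 and 9746 scaled reads in TPC1 and 10676, 10458 and 10380 in D11, which overlapped. WB1 had 11147, 10763 and 11858 and TD5 11452, 12264 and 11956, all above TPC1, which held for 26.5% and 12.1% of all tested genes. The means were 9636 ± 945 (SD, n = 3) in TPC1 and 11891 ± 410 (SD, n = 3) in TD5. The log2 fold change was 0.13 in D11 (SE 0.06, adjusted p = 0.129), 0.23 for WB1 (SE 0.06, adjusted p = 0.0139) and 0.31 for TD5 (SE 0.06, adjusted p = 0.0047). The p threshold was thus passed in WB1 and TD5 with increases well under 1.5-fold. In WB1 it was no longer passed with median-of-ratios scaling (0.16, adjusted p = 0.0886), without TPC1 replicate 1 (0.15) or without WB1 replicate 3 (0.19). At that p threshold alone, 18.6% of all tested genes were higher in WB1 and 5.32% in TD5. HMGA1 is GC-rich (61.3%), and after the GC correction its values were 0.30, 0.39 and 0.33 in D11, WB1 and TD5 (adjusted p = 0.000694, 5.45e-05 and 0.000454). Of 7 HMGA1 pseudogene copies listed by name, none exceeded 10 scaled reads in any library.

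**Figure D2:**
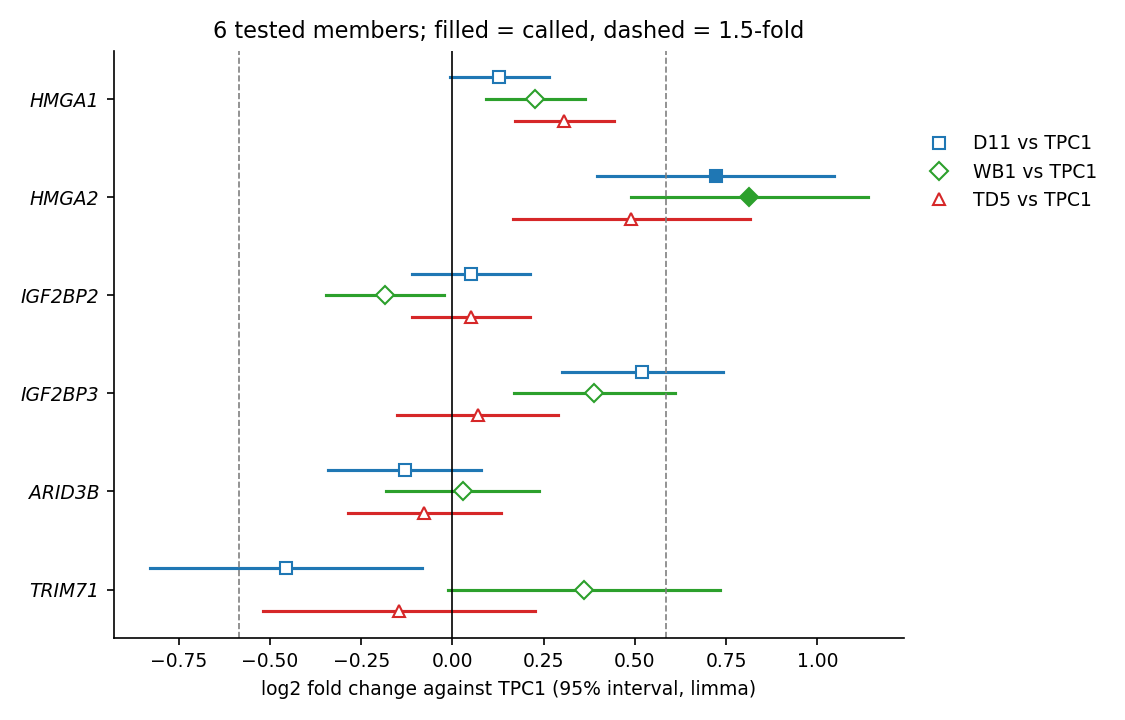
Log2 fold change of the 6 tested members in D11 (squares), WB1 (diamonds) and TD5 (triangles) against TPC1, with 95% intervals from limma over 12 libraries. Filled symbols are called genes and dashed lines mark 1.5-fold. The called values are HMGA2 in D11 (0.72) and WB1 (0.81).

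The IGF2BP genes encode RNA-binding proteins that stabilize their target mRNAs, and they are mostly fetal. IGF2BP1 (ENSG00000159217, chromosome 17, 48997385 to 49056145) was at or under the floor of 3 reads in every library, with 1, 2 and 0 scaled reads in TPC1, 2, 0 and 0 in D11, and 0 in all WB1 and TD5 libraries. A change in it was not detectable at this depth. IGF2BP2 and IGF2BP3 were both well expressed.

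IGF2BP3 (ENSG00000136231, chromosome 7, 23310209 to 23470491) had 1488, 1348 and 1371 scaled reads in TPC1. The D11 libraries gave 1814, 2021 and 2240, the WB1 libraries 1851, 1902 and 1771, and the TD5 libraries 1382, 1262 and 1824. The D11 and WB1 libraries all lay above TPC1, as in 29.6% and 26.5% of all tested genes, and TD5 overlapped it, with replicate 3 apart as for HMGA2. The log2 fold change was 0.52 in D11 (SE 0.10, adjusted p = 0.00186) and 0.39 in WB1 (SE 0.10, adjusted p = 0.0107), both past the p threshold, where 19.9% and 18.6% of all tested genes were higher, and under 1.5-fold. Without D11 replicate 1 the D11 value was 0.60 and a call. In TD5 it was 0.07 (SE 0.10, adjusted p = 0.729), and −0.08 without replicate 3. TD5 was lower than D11 by a tested difference of −0.45 (SE 0.10, adjusted p = 0.00587), which became −0.60 and a call without TD5 replicate 3. WB1 and D11 differed by −0.13 (95% interval −0.35 to 0.09).

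IGF2BP3 has 40.5% GC, and the GC correction gave 0.37 in D11 (adjusted p = 0.00336), 0.26 for WB1 (adjusted p = 0.0258) and 0.04 for TD5 (adjusted p = 0.776). MALSU1, a mitochondrial ribosome assembly gene on the opposite strand, shares 1521 exon bases with IGF2BP3. It had 907 to 1063 scaled reads in TPC1, 1117 to 1261 in D11, 983 to 1139 in WB1 and 963 to 1193 in TD5, and passed the threshold in no clone (adjusted p = 0.057 in D11).

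IGF2BP2 (ENSG00000073792, chromosome 3, 185643130 to 185825042) had 3274, 3366 and 2957 scaled reads in TPC1. Those of D11 gave 3415, 3259 and 3261, the WB1 libraries 2423, 3015 and 3026, and the TD5 libraries 3434, 3283 and 3214. All 3 clones overlapped TPC1. The log2 fold changes of 0.05, −0.19 and 0.05 in D11, WB1 and TD5 did not pass the threshold (adjusted p = 0.627, 0.0755 and 0.73), with 95% intervals of −0.11 to 0.21, −0.35 to −0.02 and −0.11 to 0.21. IGF2BP2 holds more seed matches (3) than IGF2BP3 or HMGA1.

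LIN28B (ENSG00000187772, chromosome 6, 104936616 to 105083332), the RNA-binding protein that blocks let-7 maturation, was at 0 in all 12 libraries. A count of 0 allows up to 2.85 to 4.72 scaled reads per library. Its paralog LIN28A had 2 scaled reads in 1 D11 and 1 WB1 library and 0 in the other 10. Expression of either factor was not detectable in TPC1 or in the clones at this depth.

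ARID3B (ENSG00000179361, chromosome 15, 74541206 to 74598131) encodes a DNA-binding protein with an AT-rich interaction domain. It had 152, 173 and 147 scaled reads in TPC1. D11 gave 138, 142 and 145, the WB1 libraries 157, 172 and 153, and the TD5 libraries 141, 159 and 144. The D11 libraries were all lower than TPC1 by a small margin, as in 21.6% of all tested genes, and the others overlapped it. No comparison passed the threshold, with log2 fold changes of −0.13 in D11 (95% interval −0.34 to 0.08), 0.03 in WB1 (−0.18 to 0.24) and −0.08 in TD5 (−0.29 to 0.13). The upper ends of these intervals were all under 1.5-fold.

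TRIM71 (ENSG00000206557, chromosome 3, 32817997 to 32897824), an RNA-binding ubiquitin ligase of stem cells and embryos, was close to the detection limit. It had 21, 9 and 6 scaled reads in TPC1. The D11 libraries gave 6, 0 and 3, the WB1 libraries 21, 22 and 18, and the TD5 libraries 12, 3 and 11. The WB1 libraries lay together at the top, and 1 TPC1 library reached the same level. Against TPC1 no clone passed the threshold. The log2 fold change was −0.46 in D11 (adjusted p = 0.0557; without TPC1 replicate 3 it was −0.59 and a call), 0.36 for WB1 (adjusted p = 0.129) and −0.15 for TD5 (adjusted p = 0.651).

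WB1 exceeded D11 in TRIM71 by 0.82 on the log2 scale (SE 0.18, adjusted p = 0.0066), the only call of a member between clones. In that comparison 1.97% of all tested genes were called higher. TRIM71 entered the test only through 3 libraries with at least 1 per 1000000, 2 of them from WB1, so a difference was favored by the filter. The call was lost with a pseudocount of 4, and the gene was no longer tested with a filter of 5 per 1000000 or without TPC1 replicate 1, WB1 replicate 1 or WB1 replicate 2. Between TD5 and D11 and between TD5 and WB1, 0 members were called, where 3.99% and 2.33% of all tested genes were called in either direction. At the p threshold alone, 1 of the 6 tested members passed in each comparison of clones, TRIM71 between WB1 and D11, IGF2BP3 between TD5 and D11 and IGF2BP2 between TD5 and WB1, where 8.07%, 23.2% and 13.6% of all tested genes did. At an unadjusted p under 0.05 in limma 2 members (HMGA1 and IGF2BP3) and 3 members (IGF2BP2, IGF2BP3 and TRIM71) passed in the comparisons of TD5 with D11 and with WB1. By the stricter rule of a call, limma and voom both gave 0 in these comparisons. The shares of all tested genes at an unadjusted p were not computed, and are at least the 23.2% and 13.6% given above.

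Levels of different members can be compared only per length. Per kilobase of exon, scaled so that all genes of a library sum to 1000000, the mean over 12 libraries was 780 for HMGA1, 99.6 for IGF2BP2, 33.2 for IGF2BP3, 21.5 for HMGA2, 4.13 for ARID3B and 0.212 for TRIM71. HMGA1 lay at the 99.1 percentile of tested genes, HMGA2 at 53.9 and ARID3B at 18.6. IGF2BP3 and HMGA2 were neighbours whose SDs overlapped in TD5 only, at 29.4 ± 6.12 and 21.5 ± 7.60 (SD, n = 3). In D11 they were 39.5 ± 4.26 and 24.2 ± 2.75 (SD, n = 3). The order was the same when the longest transcript replaced the union of exons, with HMGA2 then at the 62.7 percentile. For HMGA2 these lengths were 8094 and 15070 bases. The length of its MANE Select transcript was not tried, and its rank against IGF2BP3 at that length was not tested.

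HMGA2 and IGF2BP3 varied together from library to library. Their Pearson correlation of log2 values over the 12 libraries was 0.851, and 0.869 after the mean of each line was removed. The 12 points share 4 lines, and libraries differ in depth and GC trend, so the value is a description. Both genes were highest within their line in D11 replicate 3 and in TD5 replicate 3. The other 14 pairs of tested members ranged from −0.47 to 0.46.

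**Figure D3:**
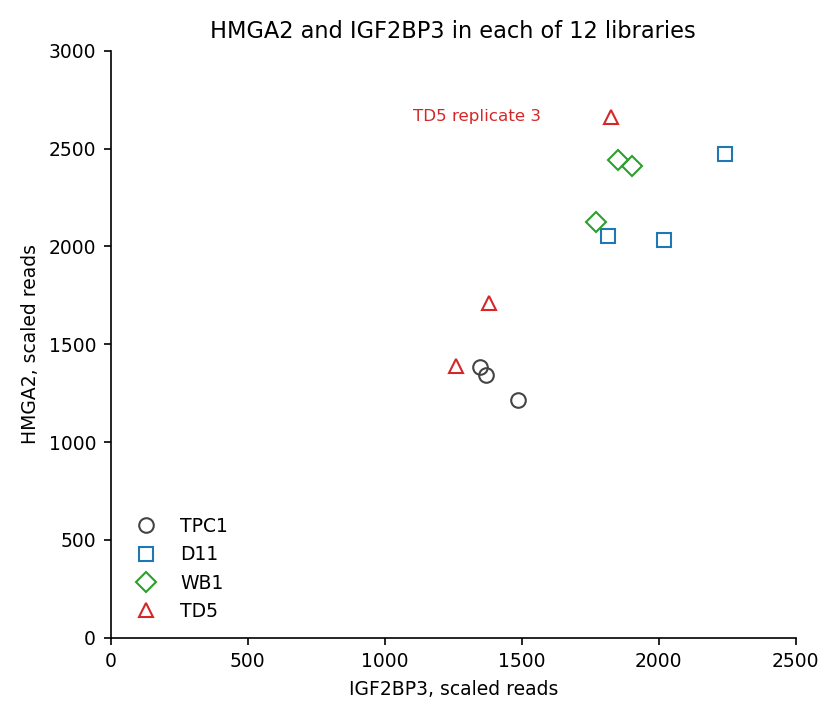
Scaled reads of HMGA2 (vertical) against IGF2BP3 (horizontal) in each of the 12 libraries, with 1 symbol per line and axes from 0. TPC1 and 2 TD5 libraries form the lower group, and the D11 and WB1 libraries lie in the upper group together with TD5 replicate 3 (1824 and 2662).

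The genes whose log2 values were most like each member over the 12 libraries were searched among 12243 genes. HMGA2 was closest to ZC2HC1A and FNIP1 (r of 0.97 for both), and IGF2BP3 to SIKE1 and RALA (r of 0.98 for both). HMGA1 was closest to FOSL1 (0.95), an AP-1 transcription factor, and HCFC1R1 (0.93). For IGF2BP2 they were ZNF672 and TP53I11 (0.89 for both), for ARID3B AC022400.1 and CLK3 (0.82 for both), and for TRIM71 AFF1 (0.90) and ZNF264 (0.89). The values are the highest among many candidates and are descriptive.

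Other genes described as let-7 targets, a list of 60 of which 48 were tested, changed in both directions. In D11 3 were called higher (YOD1, FAS and UHRF2) and 1 lower (IL6), where 2.89% and 1.95% of all tested genes were. In WB1 0 were called higher and 4 lower (IL6, THBS1, EDN1 and CDC25A), against 3.39% and 1.59% of all tested genes. In TD5 0 were called higher and 2 lower (IL6 and EDN1), against 1.12% and 1.48%. For D11, WB1 and TD5 the 48 had a median log2 fold change of 0.17, 0.10 and −0.00, and all tested genes one of 0.05, 0.06 and 0.00.

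IL6, an inflammatory cytokine, had 257, 171 and 213 scaled reads in TPC1. In turn, D11 gave 129, 151 and 114, the WB1 libraries 140, 106 and 98, and the TD5 libraries 100, 126 and 68. All 9 clone libraries were below TPC1, as was so for 6.67% of tested genes. Its log2 fold change was −0.62 in D11 (adjusted p = 0.014), −0.79 for WB1 (adjusted p = 0.00349) and −1.0 for TD5 (adjusted p = 0.00138). The D11 call was lost without TPC1 replicate 1 (−0.49) or D11 replicate 3 (−0.53) and with a pseudocount of 4 (−0.47). EDN1, the vasoconstrictor endothelin-1, was lower in WB1 (−0.74) and TD5 (−0.73), and both calls were lost with a pseudocount of 4 (−0.35 in both), the TD5 call also without TPC1 replicate 1 (−0.60) or 3 (−0.62).

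THBS1, a secreted matrix glycoprotein, was by far the most abundant of the called targets at 29263 to 35354 scaled reads in TPC1. It had 22166 to 24119 in D11, 13809 to 22145 in WB1 and 18130 to 25355 in TD5, all below TPC1. The log2 fold change was −0.86 in WB1 (adjusted p = 0.000215), and −0.44 in D11 and −0.57 in TD5 were under 1.5-fold, though TD5 became a call without TPC1 replicate 2 (−0.63), TPC1 replicate 3 (−0.59) or TD5 replicate 2 (−0.70). CDC25A, a phosphatase that activates cyclin-dependent kinases, had 800 to 1010 in TPC1 and 527 to 583 in WB1 (−0.65, adjusted p = 0.000367), which without TPC1 replicate 1 was −0.55 and no call.

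Of the genes higher in D11, YOD1, a deubiquitinase, had 364 to 452 scaled reads in TPC1 and 560 to 816 in D11 (0.75, adjusted p = 0.00338). FAS, the death receptor, had 534 to 670 and 835 to 1085 (0.69, adjusted p = 0.000791), and UHRF2, a ubiquitin ligase that binds modified DNA, 353 to 427 and 563 to 673 (0.67, adjusted p = 0.000337). With the GC correction YOD1 and FAS were 0.53 and 0.57, under 1.5-fold.

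The oncogene targets NRAS, MYC, HRAS, CDK6 and CCND1 stayed under 1.5-fold in every clone. NRAS passed the p threshold in D11 (log2 fold change 0.33, adjusted p = 0.0175) and in WB1 (0.30, adjusted p = 0.0305). MYC was 0.05, −0.08 and 0.06 and HRAS −0.04, −0.18 and −0.19 in D11, WB1 and TD5, none past it. CDK6 did not pass it in any clone, and CCND1, which encodes cyclin D1, passed it in TD5 (−0.27, adjusted p = 0.0257).

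**Figure D4:**
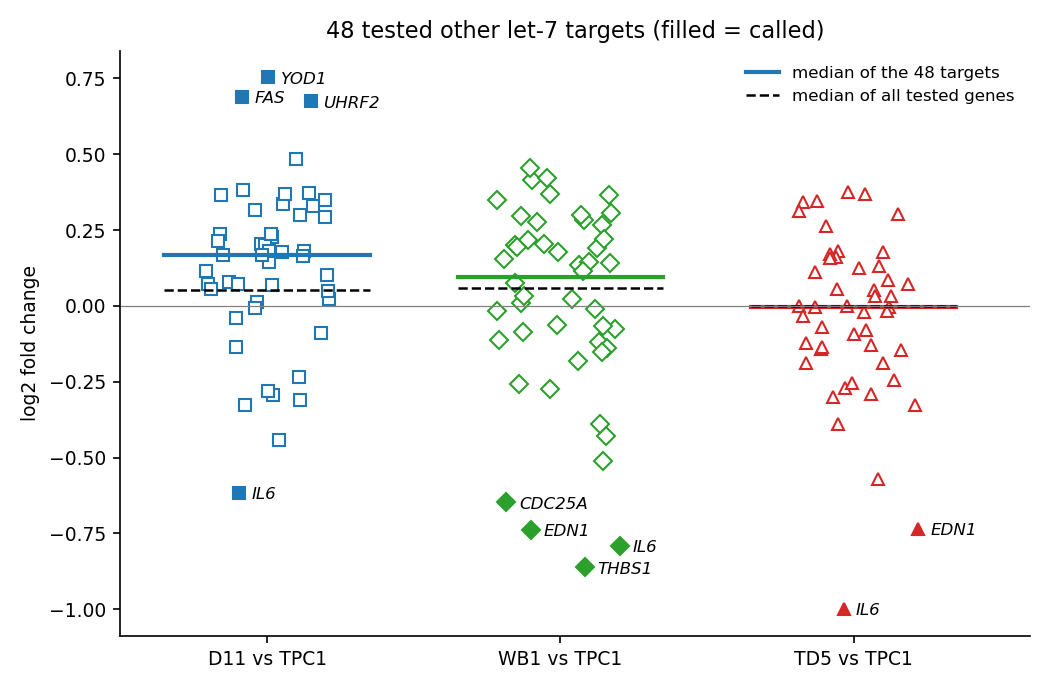
Log2 fold change of the 48 tested other let-7 targets in each clone against TPC1, with 1 symbol per gene, spread sideways at random. Filled and named symbols are called, solid lines are the median of the 48 and dashed lines the median of all tested genes. The medians of the targets are 0.17, 0.10 and −0.00, and IL6 is the one gene called in all 3 clones.

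Among genes that mature, destroy or use let-7, a list of 21 with DICER1, DROSHA, Argonaute and TNRC6 genes of which 20 were tested, DICER1 in TD5 was the 1 call against TPC1. At the p threshold alone 8 passed in D11, 9 in WB1 and 1 in TD5, where 33.3%, 30.9% and 11.9% of all tested genes did. Of the transcripts that hold let-7 hairpins, the noncoding hosts were low and the protein-coding hosts HUWE1 and WDR82 high, at 7259 to 8891 and 4398 to 5798 scaled reads. The short hairpin genes had at most 10. MIR100HG, a let-7a host, had 94, 117 and 60 scaled reads in TPC1. D11 gave 143, 190 and 156, the WB1 libraries 153, 248 and 188, and the TD5 libraries 120, 104 and 143. D11 and WB1 lay above TPC1, as in 29.6% and 26.5% of all tested genes, and TD5 overlapped it. MIR100HG was called higher in D11 (0.76, SE 0.18, adjusted p = 0.006) and WB1 (0.98, SE 0.18, adjusted p = 0.0011), and the value for TD5 was 0.39 (adjusted p = 0.179). The D11 call was lost without TPC1 replicate 3 (0.54), with the GC correction (0.53) and with a pseudocount of 4 (0.52). TD5 was called lower than WB1 (−0.59, adjusted p = 0.0429), a call that was lost under most alternatives, among them the GC correction (−0.46), and without any one of TPC1 replicate 1, D11 replicate 3, WB1 replicates 2 and 3 and TD5 replicates 1 and 2 (adjusted p = 0.0531 to 0.201). MIRLET7BHG had 30 to 53 and MIR99AHG 21 to 38 over all libraries, and MIRLET7DHG 12 to 20 in TPC1 and 27 to 36 in D11 (0.49, adjusted p = 0.0165, under 1.5-fold). Mature miRNA levels are not measured by these libraries.

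Over all genes with an annotated 3′ UTR, those with a let-7 match stood slightly higher in D11 and WB1. The 2224 tested genes with at least 1 match had median log2 fold changes of 0.12, 0.10 and 0.01 for D11, WB1 and TD5, while the 10058 tested genes with none had 0.03, 0.04 and 0.00. Genes with a match also had longer 3′ UTRs (a median of 3150 against 1088 bases) and a lower GC content (44.4% against 48.6%). The part of length and GC content in this difference was not tested. Among the 98 tested genes with at least 3 matches, 7 were called higher and 1 lower in D11, where 2.23% and 2.25% of all tested genes with a 3′ UTR were. For WB1 these counts were 2 and 1, against 3.01% and 1.76%, and for TD5 0 and 2, against 1.19% and 1.64%. HMGA2 is among the 98 and among those called higher in D11 and WB1. The 98 had a median 3′ UTR of 7096 bases and 42.2% GC. Of genes with at least 1 match, 3.24%, 2.74% and 0.899% were called higher in D11, WB1 and TD5. Of genes with none, 2.01%, 3.07% and 1.25% were. Of the 521 with at least 1 8-mer, 3.65%, 2.3% and 0.384% were.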

How the data were processed

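RNA-seq of TPC1 and of the clones D11, WB1 and TD5 was taken from the deposited table, with 3 libraries per line assigned from the titles and genotypes in the labels. Per the study's methods, the authors aligned read pairs from a stranded mRNA kit to GRCh38 by STAR 2.5.3a, obtained gene counts on the Ensembl 90 annotation by HTSeq 0.9.1, normalized them to 20000000 aligned reads and tested them with the edgeR quasi-likelihood method. Since the deposited numbers are scaled and rounded up, they were handled as a score (scaled reads, no raw counts), and depth was estimated from their steps. Here limma 3.58.1 (R 4.3.3) was run with a variance trend on log2(value per 1000000 + 1), with 1 mean per line over all 12 libraries. The filter was 1 per 1000000 in 3 or more libraries, which 16027 genes passed. A call took an adjusted p (Benjamini-Hochberg) under 0.05 together with a 1.5-fold change.

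The members and all gene lists were chosen with earlier results of these data known. All members were named, with DICER1, LIN28A, the called genes of the lists (at most 10 other targets), a fixed set of oncogenes, cyclin D1, CDK6 and CDC25A, the let-7 hosts that passed the filter, and the 2 genes most like each member with a mean of at least 5 per 1000000. RPSAP52, AC090673.1 and MALSU1 were named for their overlap with members, and FOXE1, KRT8, KRT18, LUM and PDGFRB as markers that moved. All of these were named after their values were seen. Some genes of these lists are not reported here. Exons and 3′ UTRs came from GENCODE 44 and mature miRNAs from RefSeq. The MANE Select 3′ UTR replaced the longest one after the HMGA2 isoforms were seen. In simulated data for D11 against TPC1, 99% of genes changed by 1 on the log2 scale and 100% of those changed by 1.5 were recovered, with 1 unchanged gene called among 16015 tested. Alternatives covered the pseudocount, the filter, scaling, GC content, exon length, the libraries fitted, a replicate block, the fold minimum, voom on estimated reads and each library left out. Combinations of the block with the GC or length correction were added after the data were seen. Replicate numbers were checked through the correlation of each library's deviation from its line mean. All 3 same-numbered pairs of D11 and TD5 were over 0.1 (0.11, 0.17 and 0.35), though no label says what a number stands for. In the other pairs of lines the same-numbered correlations ran from −0.27 to 0.11. Differently numbered pairs of D11 and TD5 ran from −0.364 to 0.203, and those of other lines reached 0.316 (D11 replicate 1 with WB1 replicate 3). The main fit held no replicate term, so the reported differences between D11 and TD5 are unpaired. The replicate block, over all lines, was run only as an alternative. Python 3.11.15 with numpy 2.4.6 and pandas 2.3.3 was used.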

Additional observations from a re-analysis of the deposited data

Results flagged for a closer look

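Differences between clones that passed an adjusted p of 0.05 in limma were found for 3 of the 6 tested members, for DICER1, for 5 of the other named targets and for 3 of the 6 tested let-7 hosts. Over all 48 tested other targets, 6 passed in WB1 against D11, 17 in TD5 against D11 and 5 in TD5 against WB1. Each of the 3 comparisons of clones held 1 of the members, where 8.07% (WB1 against D11), 23.2% (TD5 against D11) and 13.6% (TD5 against WB1) of all tested genes passed. Members that differed were IGF2BP2, higher in TD5 than in WB1 (log2 difference 0.24, adjusted p = 0.0499), IGF2BP3, lower in TD5 than in D11 (−0.45), and TRIM71, higher in WB1 than in D11 (0.82). DICER1 was lower in TD5 than in D11 (−0.58) and than in WB1 (−0.34). FAS was lower in WB1 than in D11 (−0.55) and in TD5 than in D11 (−0.76). CDC25A was lower in WB1 than in D11 (−0.64) and higher in TD5 than in WB1 (0.36). TD5 was lower than D11 for UHRF2 (−0.36), CDK6 (−0.42) and CCND1 (−0.28). Of the let-7 hosts, MIRLET7DHG was lower in TD5 than in D11 (−0.51), and MIR100HG (−0.59) and HUWE1 (−0.20) were lower in TD5 than in WB1. Of these 15 differences, TRIM71, FAS in TD5 against D11, CDC25A in WB1 against D11 and MIR100HG also reached 1.5-fold. FAS and UHRF2 were named because they were called higher in D11 against TPC1, which favored lower values in the other clones against the same D11 libraries. The TRIM71 difference was favored by the filter, which it passed mainly through WB1 libraries.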

How the results depend on the processing

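Of 876 member log2 fold changes under alternatives, 842 kept direction and side of the threshold. The replicate block changed 0 of 109 calls. For HMGA2 in D11 against TPC1 it gave 0.72 (adjusted p = 0.00369). The number of members called in D11 was 1, and 0 with the GC correction, also combined with the replicate block. It was 2 with a pseudocount of 0.1 or with voom (HMGA2 higher and TRIM71 lower). Under these settings 775 and 766 of all 16027 tested genes were called higher, and 413 and 409 lower. With no minimum fold change it was 2 in D11, where 33.3% of all tested genes passed. In WB1, TD5, TD5 against D11 and TD5 against WB1 the counts with no minimum fold change were 3, 2, 1 and 1. Of all tested genes 30.9%, 11.9%, 23.2% and 13.6% passed there. For WB1 against D11 the count was 0 with a pseudocount of 4 or a filter of 5 per 1000000. Leaving out 1 library gave 1 to 2 members in D11, 0 to 1 in TD5, 0 to 1 in WB1 against D11 and 0 to 1 in TD5 against D11. For the other targets the count was 2 in D11 with the GC correction, with or without the block. With no minimum fold change, 21, 20 and 7 of the 48 tested passed in D11, WB1 and TD5. Of all tested genes, 33.3%, 30.9% and 11.9% did. In TD5 the count was 1 with a pseudocount of 4 or a filter of 5 per 1000000, and 1 to 3 with 1 library left out. For the 20 tested genes of let-7 maturation the counts with no minimum fold change were 8 and 9 in D11 and WB1, against the same 33.3% and 30.9%.

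The results whose direction reversed did not pass the threshold, either as reported or where reversed. Under median-of-ratios scaling IGF2BP2 was −0.0077 in D11 and 0.0515 in TD5 against D11, ARID3B −0.0288 in WB1, and CCND1 −0.0464 and MYC −0.0118 in D11. Under the GC correction, with or without the block, ARID3B was 0.0222 in D11 and −0.0563 in TD5 against D11, HMGA1 −0.0594 in TD5 against WB1, and CDK6 −0.055, CDC25A 0.0746 and HRAS 0.134 in D11. Under the length correction, with or without the block, CDC25A was 0.0157 and HRAS 0.0116. With 1 library left out, IGF2BP2 ranged from −0.0039 to 0.0889 in D11, −0.0047 to 0.0881 in TD5 and −0.0273 to 0.0215 in TD5 against D11, ARID3B from −0.0165 to 0.0905 in WB1, IGF2BP3 from −0.084 to 0.178 and TRIM71 from −0.282 to 0.0051 in TD5, CCND1 from −0.0073 to 0.0379 and CDC25A from −0.0781 to 0.0864 in D11, and FAS from −0.133 to 0.0259 in TD5. The cause of these changes was not tested. Depth limits IGF2BP1 and LIN28B, which were at or under the floor in every library. It also limits TRIM71, which was at or under the floor in 2 D11 libraries and 1 TD5 library, and above it in all TPC1 and WB1 libraries.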
